A study of Homo sapiens with 4 samples.

Results

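The genes for mitochondrial protein import were followed in G401 cells after loss of BRD9. They were chosen by symbol. Every gene model was taken whose whole symbol is TIMM and a number, alone or followed by A or B. The same held for TOMM and a number, alone or followed by A or L. To these were added TIMMDC1, PAM16, SAMM50, MTX1, MTX2, MTX3, GRPEL1, GRPEL2, PMPCA, PMPCB, CHCHD4 and GFER. This gave 37 of the 57820 gene models in the deposited tables, for 36 symbols, because TIMM10B has a pair of models. Of the 37, 35 were among the 15288 genes with enough counts to be tested, and TOMM20L and the second TIMM10B model were not.

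Nearly all mitochondrial proteins are encoded in the nucleus, made in the cytosol and threaded into the organelle. They pass the outer membrane through the TOM channel, from which barrel proteins go to the SAM complex, carrier proteins go by way of the small TIM chaperones to the TIM22 complex, and proteins with a cleavable presequence go through the TIM23 channel, pulled in by a motor built on the chaperone mortalin. Small cysteine-rich proteins are instead trapped between the membranes by the MIA disulfide relay, and presequences are cut off in the matrix by the processing peptidase. Many of these genes are known targets of nuclear respiratory factors and of ETS-family factors, which tune nuclear genes to the need for respiration.

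RNA-seq had been carried out on 4 libraries of G401, an established line of kidney rhabdoid tumour cells that lacks SMARCB1. In 2 of them BRD9, the bromodomain subunit of a SWI/SNF chromatin remodelling complex, had been knocked out (BRD9 KO), and the other 2 carried the LacZ control. Per the methods of the study, lines for knockouts expressed Cas9 from a lentivirus and received guides from another, with drug selection for each. The LacZ guide is not described there, nor is it said whether the sequenced cells were mixed populations or clones. The paper reports that BRD9-deficient clones could not be recovered from G401, and that deleting BRD9 impaired growth of this line. Whether a change of growth moved the import genes was not tested. The comparison addresses what loss of BRD9 does to transcript levels in cells that already lack SMARCB1.

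Totals ran from 15053195 to 19559200 counts per library. Expression of a gene in a library is given as CPM, a count relative to its library's TMM-scaled total, and levels of different genes are set side by side only as TPM, which is corrected for transcript length. BRD9 itself was at 29.4 and 26.8 CPM in the BRD9 KO libraries and at 48.2 and 53.8 CPM in the LacZ libraries, 55.1% of the control level (edgeR adjusted p = 2.84e-09). The transcript was lower but present in both knockouts, and transcript from unedited cells cannot be told apart from transcript of an edited gene. The transcript level is not a measure of BRD9 protein. The paper shows deletion of BRD9 in G401 on a western blot, without saying whether those cells were the sequenced ones. SMARCB1 had 0 counts in all 4 libraries, as had the leukocyte markers PTPRC and CD3E. The macrophage marker CD68 was at 194 and 191 CPM in BRD9 KO and at 156 and 164 CPM in LacZ (log2 fold change 0.27, edgeR adjusted p = 3.09e-07). Of the filament genes, VIM was at 1269 and 1276 CPM against 1788 and 1797 CPM, a fold change of 0.71, and KRT8 at 3738 and 3717 CPM against 2813 and 2771 CPM, a fold change of 1.33 (edgeR adjusted p = 1.25e-18 for each). Whether what moved these markers moved the import genes was not tested. With bulk RNA, a change in the mix of edited and unedited cells and a change of RNA within each cell cannot be told apart either.

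Transcripts for import components were on balance slightly more abundant in BRD9 KO. Of the 35 tested, 14 were higher at an adjusted p under 0.05 and 1 was lower, with 20 not passing (edgeR quasi-likelihood test, Benjamini-Hochberg adjustment over all 15288 genes). The share higher was 40%, beside 20.5% of all genes tested, and the share lower was 2.86%, beside 18.1% of all genes tested. Import genes are well expressed, so they were also set beside genes whose mean reached at least 10 CPM. There 14 of 34 import genes, 41.2%, were higher against 27.7% of all such genes, while 21.2% of all such genes were lower.

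The changes were small. The fold change of TOMM40, the highest, was 1.30, and the log2 fold changes of the 35 genes ran from -0.25 to 0.38. Their median was 0.11 against -0.01 over all genes tested and 0.02 over all genes with at least 10 CPM. The estimate was above 0 for 28 of 35 import genes (80%) and for 49.0% of all genes. Both BRD9 KO libraries lay above both LacZ libraries in CPM for 20 import genes (57.1%, beside 34.1% of all genes), both lay below for 3 (34.5% of all genes), and the groups overlapped for 12. The shares for sign and for library order were taken over all genes tested, without the limit of 10 CPM.

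The number of calls depended on the method and on the libraries. With DESeq2 7 import genes were higher, 20% of those tested against 14.3% of all genes with an adjusted p, and none was lower against 11% of all genes. These DESeq2 shares of all genes were not limited to at least 10 CPM, a limit under which the edgeR shares were larger. With edgeR the count higher was 11 without BRD9 KO replicate 1 (16.9% of all genes tested), 11 without BRD9 KO replicate 2 (16.8%), 10 without LacZ control replicate 1 (15.4%) and 9 without LacZ control replicate 2 (14.9%), so that calls over all genes fell as well. Only 6 import genes passed in every one of 14 other fits, which is 17.1% against 7.26% of all genes: TIMM10B, TIMM17A, GRPEL1, TOMM5, TIMM44 and TOMM7. Some of the 15288 genes behind the 7.26% could not pass every fit. The fit that required 1 CPM in every library tested 13243 genes, and 13213 had a DESeq2 adjusted p.

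**Figure D1:**
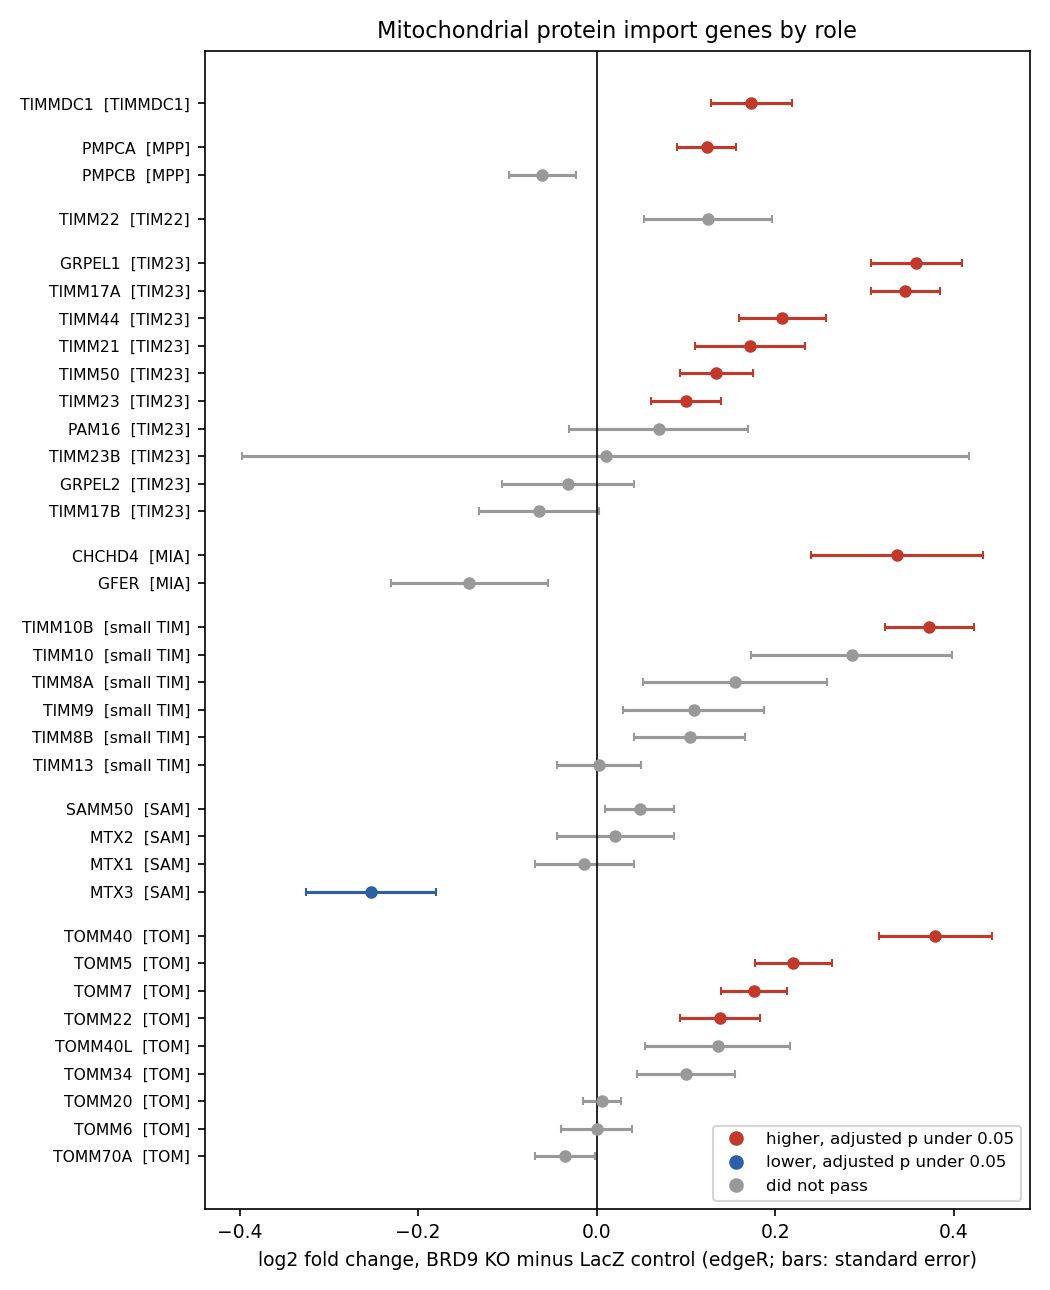
Log2 fold change (x axis, BRD9 KO minus LacZ control, edgeR) of each of the 35 tested import genes, grouped by role on the y axis, with bars for the standard error and red, blue and grey points for higher, lower and not passing at an adjusted p under 0.05. Of the points, 14 are red, and MTX3 at -0.25 is the blue one.

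**Figure D2:**
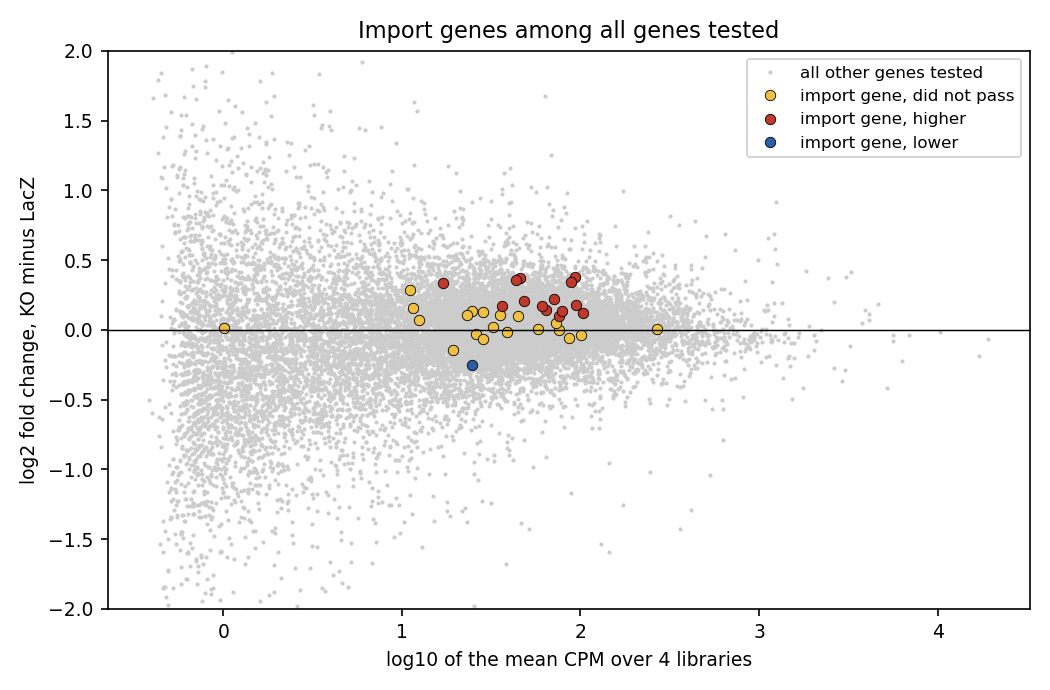
Log2 fold change (y axis, BRD9 KO minus LacZ control) against the log10 of the mean CPM over 4 libraries (x axis) for all 15288 genes tested in grey, with the 35 import genes as outlined points, of which red were higher, blue lower and yellow did not pass. The import genes sit at middle to high abundance and within -0.25 to 0.38, and 63 genes lie outside the y range drawn.

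The TOM complex is the entry gate of the outer membrane. Of the 9 tested genes grouped with it, which include the cytosolic cochaperone TOMM34, 4 were higher and none was lower. Their median log2 fold change was 0.14. Beside the edgeR counts of this and each later role stand 20.5% higher and 18.1% lower of all genes tested. For genes with at least 10 CPM these shares were 27.7% and 21.2%. Summed over the 10 gene models of this group, TOMM34 among them, TPM was 1101 and 1096 in the BRD9 KO libraries. In the LacZ libraries it was 1012 and 985, so both knockouts lay above both controls.

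TOMM40, at chr19:45393826-45406946 on GRCh37 (+ strand), encodes the channel itself. It was at 103 and 106 CPM in BRD9 KO and at 86.7 and 74.6 CPM in LacZ, which is 105 ± 1.78 against 80.6 ± 8.58 (SD, n = 2 each). Its log2 fold change was 0.38 ± 0.06 (standard error, edgeR adjusted p = 0.00279). The controls were far apart from each other and yet both lay below the knockouts, and with either BRD9 KO library left out the change no longer passed, at adjusted p = 0.115 and 0.105 (edgeR).

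The other TOM genes that rose were small subunits that pack around the channel, and the receptor that organises it. TOMM5 (chr9:37582643-37592601, - strand), one of the small subunits, was at 79.5 and 73.4 CPM against 65.2 and 66.4 CPM, which gave 0.22 ± 0.04 on the log2 scale (adjusted p = 0.000407, edgeR). TOMM7 (chr7:22852247-22862468, - strand), another, was at 97.7 and 103 CPM against 87.0 and 89.9 CPM, a change of 0.18 ± 0.04 (edgeR adjusted p = 0.000792). TOMM22, the central receptor, was at 67.3 and 67.7 CPM against 64.0 and 58.9 CPM, and its log2 change of 0.14 (edgeR adjusted p = 0.0185) did not pass with DESeq2 (adjusted p = 0.165) or in edgeR without BRD9 KO replicate 2 (adjusted p = 0.0533) or LacZ control replicate 2, where it was 0.08 (adjusted p = 0.299). In all 3 genes the groups did not overlap, but in TOMM22 the nearer control lay close to the knockouts.

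The receptors that first bind precursors did not pass. TOMM20, which reads presequences, was at 271 and 269 CPM in BRD9 KO and at 271 and 267 CPM in LacZ, a log2 fold change of 0.01 ± 0.02. TOMM70A, which receives carrier proteins from cytosolic chaperones, was at 98.1 and 101 CPM against 102 and 102 CPM, a change of -0.04 ± 0.03. The libraries of TOMM20 overlapped, and its standard error was the narrowest of any import gene. TOMM6, a further small subunit, had a log2 fold change of 0.00 and overlapping libraries, in contrast with TOMM5 and TOMM7.

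TOMM34, a cytosolic cochaperone of import, had a log2 fold change of 0.10 ± 0.06 and did not pass, although its knockouts lay above its controls. TOMM20L was nearly silent, at 0.54 to 0.96 TPM. By level per length the small subunits led: TOMM6 was at 228 to 242 TPM and TOMM7 at 215 to 249 TPM, whose ranges overlap, followed by TOMM5 at 156 to 190 TPM and TOMM20 at 135 to 143 TPM.

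The SAM complex inserts barrel proteins into the outer membrane, with the metaxins at its cytosolic face. None of its 4 genes rose and 1 was lower, with a median log2 fold change of 0.00. SAMM50, the barrel at its core, was at 75.0 and 72.6 CPM against 71.0 and 71.9 CPM and did not pass (log2 fold change 0.05 ± 0.04). MTX1 and MTX2 had changes of -0.01 and 0.02 with overlapping libraries. Summed TPM of the group was 187 and 184 in BRD9 KO and 189 and 183 in LacZ, overlapping throughout.

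MTX3, a metaxin of low abundance (chr5:79272539-79287085, - strand), was the import gene that fell. It was at 22.9 and 22.0 CPM in BRD9 KO and at 27.9 and 25.8 CPM in LacZ, which is 22.5 ± 0.67 against 26.8 ± 1.46 (SD, n = 2 each). Its log2 fold change was -0.25 ± 0.07 (edgeR adjusted p = 0.00958). Both knockouts lay below both controls, but the call was lost with DESeq2 (adjusted p = 0.108) and in edgeR without BRD9 KO replicate 2 (adjusted p = 0.0712) or LacZ control replicate 1 (adjusted p = 0.114).

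The small TIM proteins ferry hydrophobic precursors across the space between the membranes. Of 6 tested, 1 was higher and none lower, with a median log2 fold change of 0.13. TIMM10B (chr11:6502731-6505911, + strand), the small TIM that sits on the TIM22 complex, was at 51.9 and 51.9 CPM in BRD9 KO and at 40.3 and 39.8 CPM in LacZ, which is 51.9 ± 0.05 against 40.1 ± 0.35 (SD, n = 2 each). It rose by 0.37 ± 0.05 on the log2 scale (adjusted p = 6.12e-06, edgeR), with the groups far apart relative to their spread.

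The carrier chaperone itself is formed by TIMM9 and TIMM10. TIMM10 (chr11:57295937-57298276, - strand) was at 11.6 and 12.8 CPM against 10.7 and 9.30 CPM, a log2 fold change of 0.29 ± 0.11 that missed the threshold (edgeR adjusted p = 0.0522), and in 5 of the other fits it passed. TIMM9 had a change of 0.11 ± 0.08 with overlapping libraries. The second chaperone, of TIMM8 and TIMM13, did not pass either: TIMM8A was at 12.2 and 12.1 CPM against 10.9 and 11.0 CPM (0.15 ± 0.10), TIMM8B at 37.1 and 36.7 CPM against 32.6 and 36.0 CPM (0.10 ± 0.06), and TIMM13 had a change of 0.00. In TIMM8A and TIMM8B the knockouts nonetheless lay above the controls.

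The MIA relay holds small TIM proteins and their relatives between the membranes by forming disulfide bonds in them. CHCHD4 (chr3:14153577-14166370, - strand), the oxidoreductase that does so, was at 20.2 and 17.9 CPM in BRD9 KO and at 13.8 and 16.4 CPM in LacZ, a rise of 0.34 ± 0.10 on the log2 scale (adjusted p = 0.00911, edgeR). GFER, the oxidase that recharges it, was at 19.1 and 17.3 CPM against 21.5 and 18.9 CPM, a change of -0.14 ± 0.09 that did not pass. CHCHD4 had separate but widely spread groups, and its call was lost with DESeq2 (adjusted p = 0.0861) and in edgeR without BRD9 KO replicate 1 (adjusted p = 0.0961) or LacZ control replicate 1 (adjusted p = 0.152). GFER overlapped between groups.

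Among the members chosen by symbol, those of the TIM23 channel and its motor held the most genes that rose with edgeR, 6 of 10. None of these members was lower, and their median log2 fold change was 0.12. Other parts of the channel and motor fall outside the symbol rule and are given with the partner lists below. Of those, HSPA9 was higher, and ROMO1 and DNAJC19 were lower with edgeR. Of all genes with at least 10 CPM 27.7% were higher. With DESeq2, TIMM17A, GRPEL1 and TIMM44 stayed higher here, and TOMM40, TOMM5 and TOMM7 in the TOM complex. Summed TPM was 625 and 619 in BRD9 KO and 556 and 553 in LacZ, again with both knockouts above both controls. TIMM17A (chr1:201924631-201939792, + strand), a channel subunit, was at 101 and 97.9 CPM against 76.0 and 80.5 CPM, which is 99.4 ± 2.19 against 78.2 ± 3.18 (SD, n = 2 each). It had the smallest p of the import genes, with a log2 fold change of 0.35 ± 0.04 (adjusted p = 5.47e-07, edgeR). The gap between its groups was several times their spread.

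In the motor, GRPEL1 (chr4:7060398-7069812, - strand), the nucleotide exchange factor that lets mortalin release its client, was at 49.1 and 48.8 CPM against 38.2 and 38.2 CPM, a log2 fold change of 0.36 ± 0.05 (adjusted p = 1.36e-05, edgeR). TIMM44 (chr19:7991603-8008552, - strand), which tethers mortalin to the channel, was at 51.9 and 51.6 CPM against 45.4 and 44.2 CPM, a change of 0.21 ± 0.05 (edgeR adjusted p = 0.00203). PAM16, which holds back the J-protein of the motor, had a change of 0.07 ± 0.10 and did not pass. In GRPEL1 and TIMM44 replicates lay close together and the groups well apart.

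The remaining members of the channel changed less. TIMM21, which links TIM23 to the TOM complex, was higher by 0.17 ± 0.06 on the log2 scale (adjusted p = 0.0321, edgeR), TIMM50, the receptor, by 0.13 ± 0.04 (edgeR adjusted p = 0.0136), and TIMM23, the channel protein, by 0.10 ± 0.04 (edgeR adjusted p = 0.0486). Each of these calls was lost with DESeq2 and without at least 2 of the libraries in turn. TIMM23 has a near-identical copy, TIMM23B, listed at about 1 CPM with a posterior SD of up to 195% of its count. With both summed, the change of the pair was 0.10 (edgeR adjusted p = 0.0514).

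For the TIM22 complex the symbol rule held a single gene, TIMM22, the carrier channel. It was at 30.1 and 28.8 CPM against 28.8 and 25.4 CPM, a log2 fold change of 0.12 ± 0.07 that did not pass. TIMM29, of the same complex, is listed as C19orf52 and so fell outside the rule. Its log2 fold change was 0.09 ± 0.09 and did not pass (edgeR adjusted p = 0.46). In the processing peptidase, PMPCA, the subunit that recognises the presequence, was at 108 and 107 CPM against 99.5 and 98.1 CPM, a rise of 0.12 ± 0.03 (edgeR adjusted p = 0.00598). PMPCB, the catalytic subunit, was at 83.2 and 86.8 CPM against 87.0 and 89.8 CPM, a change of -0.06 ± 0.04 that did not pass. The subunits thus lay on opposite sides of their controls, neither overlapping, although the rise of PMPCA did not pass with DESeq2 (adjusted p = 0.0988). TIMMDC1, an assembly factor of respiratory complex I named for its resemblance to TIM proteins, was at 66.5 and 62.5 CPM against 56.0 and 58.6 CPM, a rise of 0.17 ± 0.05 (edgeR adjusted p = 0.00478) that did not pass with DESeq2 (adjusted p = 0.0748).

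**Figure D3:**
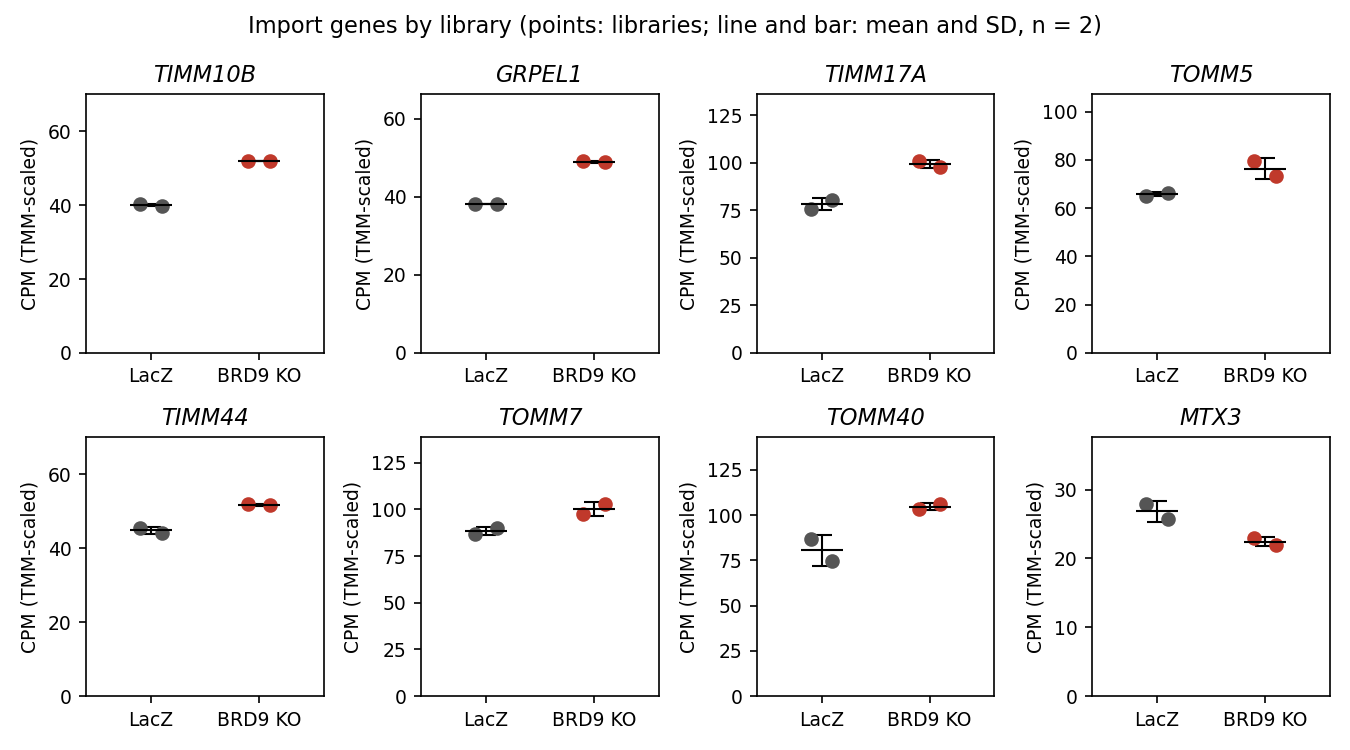
CPM (y axis, TMM-scaled) of 8 import genes in each LacZ (grey) and BRD9 KO (red) library, with a line for the mean and a bar for the SD of 2 libraries. The first 6 panels are the genes that passed in every fit, in which both red points lie above both grey points. In TOMM40 the controls at 86.7 and 74.6 CPM are spread widely, and in MTX3 the red points lie below.

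Several import proteins have a second copy, and the copies differed in what was measured. TIMM17A rose while TIMM17B was at 28.5 and 26.7 CPM against 29.5 and 28.4 CPM (log2 fold change -0.06 ± 0.07, not passing). TIMM17A accordingly made up 66.6% and 68.9% of the TPM of the pair in BRD9 KO and 60.8% and 63.0% in LacZ. GRPEL1 made up 83.9% and 84.9% of its pair in BRD9 KO and 80.6% and 80.9% in LacZ, with GRPEL2 at 27.0 and 24.6 CPM against 27.6 and 25.4 CPM. In both pairs the shares did not overlap between groups.

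The same order held for TOMM40, at 85.3% and 87.3% of its pair with TOMM40L against 84.9% and 82.8%, but here the nearest values almost met. TOMM40L was at 28.0 and 23.8 CPM against 23.0 and 24.3 CPM and overlapped in CPM. The share of MTX1 in the sum of MTX1 and MTX3 was 86.5% and 85.7% against 83.8% and 83.8%, and MTX2 made up 81.2% and 83.0% of its sum with MTX3 against 80.8% and 80.4%. Shares of TIMM8A, TIMM10, TIMM23 and TOMM20 in their pairs overlapped between the groups, as did TIMM10 at 48.9% and 51.6% against 51.9% and 49.3%, since TIMM10B and TIMM10 had similar estimates. With 2 libraries against 2, an exact permutation test of a share (two-sided) cannot go below p = 0.333, which was the value for each of the 5 separate pairs.

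**Figure D4:**
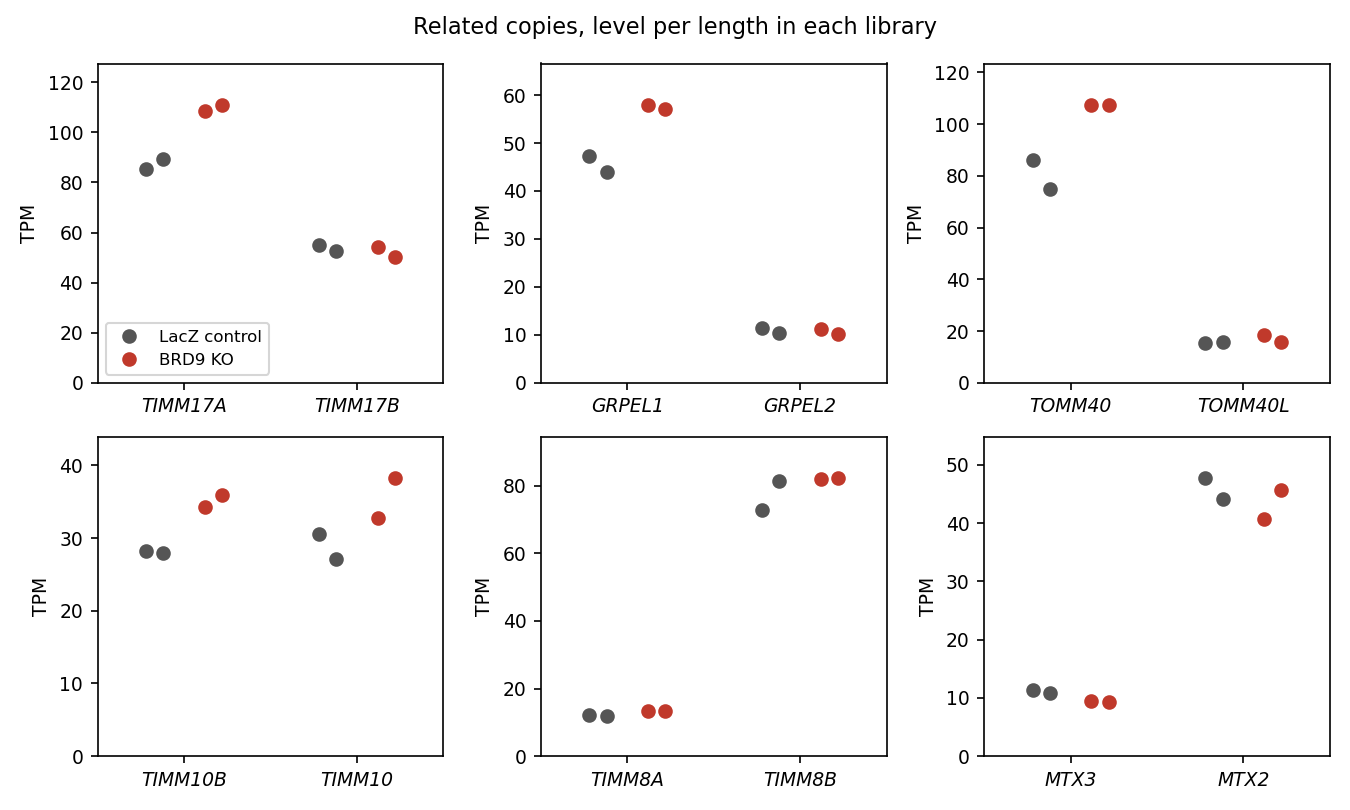
TPM (y axis) of 6 pairs of related import genes in each LacZ (grey) and BRD9 KO (red) library. TIMM17A, GRPEL1 and TOMM40 are higher in both red libraries, and their partners TIMM17B and GRPEL2 overlap between the groups. TOMM40L is separate in TPM, at 18.4 and 15.7 against 15.4 and 15.6, although its groups overlap in CPM.

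RSEM assigns reads to isoforms, and the effective length of a gene moves when its isoforms do. The effective lengths of the groups did not overlap for 11 of 35 import genes (31.4%), beside 31% of all genes tested. The posterior SD of the count, a measure of reads shared between genes, was at most 2.1% of the count among the 15 import genes that changed. An exon of another tested gene overlaps 9 import genes: MTX1, PMPCB, SAMM50, TIMM17B, TIMM22, TIMM8B, TIMM9, TOMM6 and TOMM20L. None of the 14 changed genes with coordinates is overlapped (TIMM23 was not matched). The kit does not mark strand, so that such reads cannot be assigned by strand. On the opposite strand, PQBP1 over TIMM17B had a log2 fold change of 0.27 and DNAJC2 over PMPCB 0.30 (edgeR). USP49 over TOMM6 had -0.27 and THBS3 over MTX1 -0.32. How far such reads entered the estimates of these import genes was not tested.

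Some import genes lie head to head with a neighbour, the starts facing away from each other. Within 1000 bp, 9 of the 35 members with coordinates had such a tested neighbour (GENCODE v44 on GRCh37). The share of all genes with such a neighbour was not taken, nor how often such pairs share a sign. ARFIP2 starts 22 bp from TIMM10B and was higher with a log2 fold change of 0.31 (adjusted p = 0.000356, edgeR), and ENTR1, listed as SDCCAG3 and 16 bp from PMPCA, was higher by 0.24 (edgeR adjusted p = 0.000397). TMEM43, 145 bp from CHCHD4, was higher by 0.16 (edgeR adjusted p = 0.000214). These 3 neighbours thus had the sign of the import gene that rose beside them.

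The neighbour of MTX3, THBS4 at 49 bp, was lower as MTX3 was, with a log2 fold change of -0.91 (adjusted p = 0.00301, edgeR) at a mean of 2.98 CPM. The pattern did not hold for TOMM22, which rose beside an uncharacterised transcript at 97 bp with a log2 fold change of -1.47 (adjusted p = 0.000143 by edgeR, mean 2.43 CPM). TIMM21 also rose beside a neighbour of the opposite sign, FBXO15 at 680 bp, whose change of -1.07 did not pass (edgeR adjusted p = 0.0651, mean 0.835 CPM). SDHD, a subunit of respiratory complex II 26 bp from TIMM8B, was higher by 0.21 (edgeR adjusted p = 9.08e-05), while TIMM8B did not pass. TOMM70A and TIMM23B did not pass with edgeR, and neither did their neighbours. Whether the genes of a pair share control was not tested.

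Because these genes are known targets of shared factors, the letters of 5 motifs were searched on both strands of RefSeq windows from 250 bases before to 50 bases after each start (GRCh38.p14). A window was held for 33 of the 36 symbols, and GRPEL1, TIMM8B and TOMM5 had none. The ETS letters CCGGAAG stood in the windows of 15 of 33 import genes (45.5%), against 10.3% of all 35116 windows and 16.9% of the 13894 windows of tested genes. For each motif, import genes were counted by symbol and the genes beside them by window, so the units differ. The 15 include TIMM23 and its near-identical copy TIMM23B, and the 33 include TOMM20L, which was not tested. Among the 12 import genes that rose and had a window, 4 held it, as did 11 of the 21 others.

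The nuclear respiratory factor letters GCGCATGCG stood in 3 of 33 windows (9.09%), those of CHCHD4, TIMM9 and TOMM7, against 1.92% of all windows and 3.19% of those of tested genes. The YY1 letters AAGATGGCG were in 4 (12.1%) against 1.75% and 3.49%, and the E-box CACGTG was in 4 (12.1%) against 7.26% and 9.36%. The cAMP response element TGACGTCA was in none of 33, against 1.85% and 2.81%. The E-box reads the same on both strands, and no 2 of these letter strings contain each other. A match describes the letters and not a bound factor.

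The matches of 4 changed genes are shown as 30 bases each, 5′ to 3′ on the strand of the gene, with the match in capitals (TIMM10B and MTX3, ETS letters, CHCHD4 and TOMM7, nuclear respiratory factor letters). They lie at chr11:6481445-6481474 (+), chr5:79991263-79991292 (-), chr3:14125003-14125032 (-) and chr7:22822954-22822983 (-). In TIMM10B, MTX3 and TOMM7 the capitals read the motif on the opposite strand, and in CHCHD4 they join overlapping matches on both strands.
TIMM10B: gcgagaggttaCTTCCGGggcggcaccgag
MTX3: ccggaaattaggaggaaaagtaCTTCCGGg
CHCHD4: cagtgtttctGCGCATGCGCgcggcgagac
TOMM7: atcgcaaccaCGCATGCGCctactactgcc
The gene that fell, MTX3, thus held the same ETS letters as TIMM10B, which rose.

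The 250 bases before the start are shown for 3 genes whose stretch overlaps no annotated exon: TIMM17A, with the smallest p and no match, TIMMDC1, which rose and had ETS letters on each strand, and TOMM20, which did not pass and held both ETS letters and an E-box. They lie at chr1:201955253-201955502 (+), chr3:119498297-119498546 (+) and chr1:235128838-235129087 (-), with matches in capitals.
TIMM17A: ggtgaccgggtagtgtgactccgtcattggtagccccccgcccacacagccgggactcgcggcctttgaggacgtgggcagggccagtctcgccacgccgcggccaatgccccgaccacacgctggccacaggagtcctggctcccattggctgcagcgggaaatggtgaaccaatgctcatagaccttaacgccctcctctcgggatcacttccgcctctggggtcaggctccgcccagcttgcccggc
TIMMDC1: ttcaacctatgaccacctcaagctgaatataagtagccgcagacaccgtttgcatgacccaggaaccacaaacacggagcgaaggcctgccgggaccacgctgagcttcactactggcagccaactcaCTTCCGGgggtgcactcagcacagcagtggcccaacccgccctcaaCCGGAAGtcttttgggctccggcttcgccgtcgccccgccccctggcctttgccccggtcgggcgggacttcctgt
TOMM20: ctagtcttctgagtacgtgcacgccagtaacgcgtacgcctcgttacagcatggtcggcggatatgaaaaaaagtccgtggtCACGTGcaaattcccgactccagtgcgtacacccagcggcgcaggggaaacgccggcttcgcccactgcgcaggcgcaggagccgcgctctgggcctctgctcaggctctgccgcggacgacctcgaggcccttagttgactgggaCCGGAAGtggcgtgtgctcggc

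Partners of import and regulators of genes for mitochondria were read from 5 partner lists of 61 genes, 59 of them tested. In these lists 20 genes (33.9%) were higher and 7 (11.9%) lower with edgeR, beside 20.5% and 18.1% of all genes tested and 27.7% and 21.2% of those with at least 10 CPM. Of the 20 higher, 8 were in the list of regulators, which are not import machinery. In the other lists the shares higher were 31.3%, 42.9%, 28.6% and 11.8%. With DESeq2 12 of the 59 were higher and 2 lower, beside 14.3% and 11% of all genes with a DESeq2 adjusted p. The same shares of all genes stand beside the counts of each list below. Their median log2 fold change was 0.06, beside 0.11 for the import genes.

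Matrix chaperones and presequence peptidases had 5 of 16 higher (31.3%) and 4 lower (25%), shares near those of all genes with at least 10 CPM. HSPA9, which encodes mortalin, the engine of the TIM23 motor, was at 744 and 752 CPM against 624 and 622 CPM, a log2 fold change of 0.26 ± 0.01 (adjusted p = 7.35e-12, edgeR). DNAJA3, a J-protein that works with it, was at 86.9 and 86.7 CPM against 68.7 and 72.2 CPM (0.30 ± 0.04, edgeR adjusted p = 4.31e-06), and the folding pair HSPD1 and HSPE1 rose by 0.08 and 0.17 (edgeR adjusted p = 6.15e-05 and 0.000178). The import motor's own tether TIMM44, its exchange factor GRPEL1 and its engine HSPA9 were therefore all higher, each with groups that did not overlap.

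DNAJC19, the J-protein partner of PAM16 in the motor, went the other way, at 18.4 and 18.2 CPM against 23.0 and 22.6 CPM (log2 fold change -0.32 ± 0.08, edgeR adjusted p = 0.00254). Its relative DNAJC15 was at 2.36 and 2.69 CPM against 4.11 and 4.02 CPM (-0.69 ± 0.21, edgeR adjusted p = 0.0139). TRAP1, a matrix chaperone, was lower by -0.12 (edgeR adjusted p = 0.00115). With DESeq2 neither DNAJC19 (adjusted p = 0.0563) nor DNAJC15 (adjusted p = 0.169) passed, and DNAJC15 also failed in edgeR with 3 of the libraries left out in turn (adjusted p = 0.07 to 0.0905).

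In the list for membrane insertion and other partners 3 of 7 were higher and 1 lower. MTCH2, an insertase of the outer membrane, was at 148 and 150 CPM against 129 and 120 CPM (log2 fold change 0.26 ± 0.03, edgeR adjusted p = 2.85e-06). DNAJC11, found with the SAM and MICOS complexes, was at 96.4 and 101 CPM against 85.7 and 83.7 CPM (0.22 ± 0.04, edgeR adjusted p = 8.31e-05). ROMO1, a small subunit of the TIM23 channel, was at 22.7 and 19.9 CPM against 26.7 and 27.4 CPM (-0.34 ± 0.08, edgeR adjusted p = 0.00151). OXA1L, which inserts proteins from the matrix side, rose by 0.07 (edgeR adjusted p = 0.0359), a call lost with DESeq2 (adjusted p = 0.248) and with each library left out.

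Of the 7 genes for MICOS, the complex that shapes crista junctions beside the SAM complex, 2 were higher, APOO by 0.23 and MINOS1 by 0.17 on the log2 scale (adjusted p = 0.00146 and 0.00308, edgeR), and none was lower. Of 17 tested substrates of the disulfide relay, 2 were higher and 1 lower, NDUFS5 by 0.10, COX19 by 0.25 and CHCHD2 by -0.11 (edgeR adjusted p = 0.00668, 0.0218 and 0.00335), with a list median of 0.06. With DESeq2 the changes of MINOS1, NDUFS5, COX19 and CHCHD2 did not pass (adjusted p = 0.062, 0.107, 0.188 and 0.0611). CHCHD4 rose while 14 of 17 of its substrates did not pass.

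The list named for regulators of nuclear genes for mitochondria had 8 of 12 tested higher (66.7%) and 1 lower (8.33%), with a median log2 fold change of 0.17. It also holds TFAM, TFB2M and TFB1M, which serve mitochondrial DNA and its transcripts and not nuclear genes. Of the 8 higher, TFAM (0.19, edgeR adjusted p = 0.0185) and TFB2M are of this kind, and TFB1M is the gene that was lower. Of all genes tested 20.5% were higher and 18.1% lower, and of those with at least 10 CPM 27.7% and 21.2%. With DESeq2 the higher calls of ESRRA and YY1 did not pass (adjusted p = 0.2 and 0.102), nor did the calls of GABPA and TFB1M given below. ATF5, the factor of the mitochondrial unfolded protein response, was at 42.5 and 39.9 CPM against 20.7 and 22.7 CPM (0.92 ± 0.07, edgeR adjusted p = 1.49e-09). The coactivators PPARGC1B, at 29.1 and 30.7 CPM against 17.2 and 20.2 CPM, and PPRC1, at 91.3 and 92.0 CPM against 70.5 and 72.2 CPM, rose by 0.67 and 0.36 (edgeR adjusted p = 1.44e-06 and 2.12e-07). In each of these the knockouts lay clear of the controls.

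TFB2M, a factor for transcription of mitochondrial DNA, rose by 0.48 (edgeR adjusted p = 1.51e-05), and its relative TFB1M fell by 0.25 on the log2 scale (adjusted p = 0.0361, edgeR). The transcript for NRF1, whose letters were searched above, was at 15.9 and 13.2 CPM against 18.2 and 16.1 CPM and did not pass (log2 fold change -0.23 ± 0.10, edgeR adjusted p = 0.0841). GABPA, of the ETS family, was higher by 0.15 (edgeR adjusted p = 0.0165). The changes of GABPA and TFB1M did not pass with DESeq2 (adjusted p = 0.166 and 0.254), nor in edgeR with 3 and 4 of the libraries left out in turn. Whether any of these moves an import gene was not tested.

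**Figure D5:**
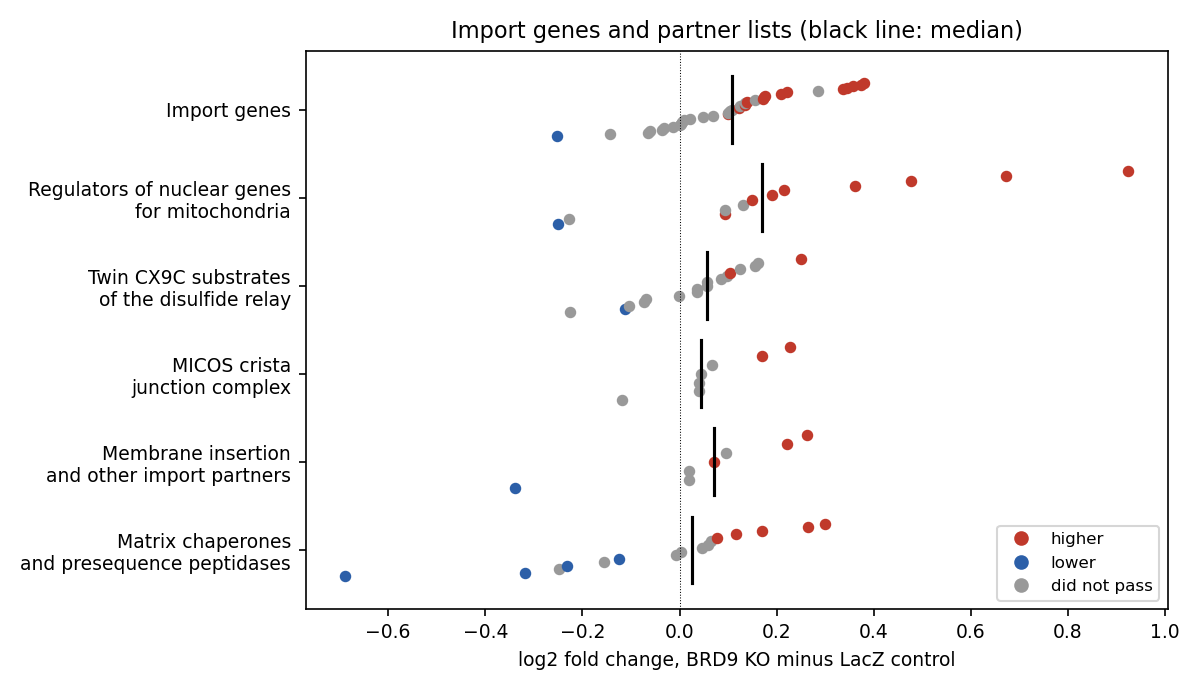
Log2 fold change (x axis, BRD9 KO minus LacZ control, edgeR) of each tested gene in the 5 partner lists and of the 35 import genes (y axis), with red, blue and grey points for higher, lower and not passing and a black line at each list's median. The median is 0.11 for import genes, 0.17 for the regulators and 0.02 for matrix chaperones and peptidases, whose points spread to both sides of 0.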

How the data were processed

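RNA-seq of 4 G401 libraries was used, 2 per group as titled. Per the labels and the submitters' processing notes, reads were aligned to hg19 with STAR and genes quantified with RSEM; DESeq2 is also named, with no version of any tool. The authors' deposited expected counts (estimated counts) divide reads that match several genes between them and are not scaled between libraries. Their deposited TPM column is scaled within a library after correction for effective length. The deposited posterior SD, posterior mean count and effective length columns were also read.

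Expected counts were rounded. Groups were compared in R 4.3.3 by the quasi-likelihood method of edgeR 4.0.16, after filterByExpr and TMM scaling, with robust dispersions and without covariates. Tests were two-sided, and p-values were adjusted by Benjamini-Hochberg over 15288 genes with a threshold of 0.05. Standard errors follow from the F statistic. Alternatives were DESeq2 1.42.0, limma 3.58.1 (voom, and on log2(TPM + 1)), other scalings and filters, posterior mean counts, TIMM23 summed with TIMM23B and MTX1 with a pseudogene, a replicate block, a threshold of 0.01 and each library left out, which takes a lone library to vary as its opposite group does. The test was tried on simulated data first.

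Totals were 15053195 to 19559200. Replicates differed by more than sampling noise (chi-square per degree of freedom 1.59 in BRD9 KO, 1.62 in LacZ). They are biological replicates by the study's methods, but no label states separate cultures, so p-values cover the spread among these libraries alone, which may be technical. Coordinates are those of GENCODE v44 on GRCh37, found for 35 of 37 members and not for TIMM23 or the second TIMM10B model.

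Members and lists were chosen with earlier results of these data known. Every member is accounted for. Of each partner list, up to 4 of the changed genes with the smallest p were to be named; other partners named were chosen after their values were seen.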

Additional observations from a re-analysis of the deposited data

How the results depend on the processing

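The count of import genes higher in BRD9 KO was 14 with edgeR, 7 with DESeq2 and 7 with limma on log2(TPM + 1), and 9 to 11 with a library left out. The count lower was 1, 0 with DESeq2, 0 on log2(TPM + 1), 2 with posterior mean counts and 0 to 1 with a library left out. The partner lists had 12 genes higher with DESeq2 and 11 on log2(TPM + 1), and 2 and 1 lower, with 3 to 6 lower when a library was left out (3 without LacZ control replicate 1). The median log2 fold change of import genes was 0.12 on log2(TPM + 1), 0.13 without a filter on low counts, 0.12 with posterior mean counts and 0.088 to 0.137 with a library left out. The replicate numbers did not pair the libraries (correlation of deviations -0.05), and with the replicate block 15 import genes were higher and 1 lower. Estimates near 0 changed sign, in 24 settings of single members, of which 1 (TIMM23B) was called there. TOMM20 was -0.00046 on library totals and -0.0024 with a minimum of 1 CPM in every library, and -0.0031 to 0.020 with a library left out. TOMM6 was -0.0061 and -0.0080 under the same settings and -0.0019 with the replicate block, and -0.041 to 0.044. TIMM13 was -0.0038 and -0.0058, and -0.036 to 0.051. On log2(TPM + 1) TOMM70A was 0.023, MTX1 0.029 and MTX2 -0.088, and MTX1 was 0.0025 with no filter. With a library left out MTX1 ran from -0.044 to 0.019, MTX2 from -0.045 to 0.10, GRPEL2 from -0.10 to 0.033 and TIMM23B from -0.28 to 0.35. TIMM23B was -0.0046 with limma-voom and -0.52 with posterior mean counts, where it passed (edgeR adjusted p = 0.0426), so its direction depends on how shared reads are divided. Causes of the other differences were not tested. Of the settings for single members, a further 418 kept direction and side of the threshold, 39 lost the call and 6 gained it with the same sign. Limits are 2 libraries a group, a partial loss of the BRD9 transcript with protein not measured in these data, and changes of at most 1.30-fold.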
